A study of Mus musculus with 33 samples.

Results

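The regions described here are p53 binding sites called after (-)-Nutlin and not after doxorubicin in mouse lymphomas. All peaks of the 26 deposited lists were merged where they shared at least 1 bp, which gave 18927 regions. A region was kept when at least 2 of the 3 (-)-Nutlin lists had a peak in it and no doxorubicin and no EtOH list had one. This left 481 (-)-Nutlin-only regions, which were thus chosen by their calls in the (-)-Nutlin, doxorubicin and EtOH lists. The mirror set, called in at least 2 doxorubicin lists and in no (-)-Nutlin or EtOH list, held 1453 doxorubicin-only regions. Another set of 5967 shared regions was called in at least 2 lists of each drug and in no EtOH list.

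The samples were B cell lymphomas from lymph nodes of Eµ-myc mice (strain C57/Bl6), in which the Myc oncogene is driven in B cells. Binding was mapped by chromatin immunoprecipitation and sequencing with the p53 antibody NCL-p53-CM5p. Tumours 5 to 7 were Arf-/- Trp53+/+, and cells of each were given 5 µM (-)-Nutlin, 1 µM doxorubicin, 5 µM (+)-Nutlin, DMSO or water for 3 h, or were left untreated. Tumours 1 to 4 were Trp53(KI/delta), with a knock-in allele over a deleted one, and cells of each were given 100 nM OHT (4-hydroxytamoxifen), which restores p53 function in this model, or the solvent EtOH for 2 h. All animals carried the Eµ-myc transgene, and the cell suspensions were not purified further, so other lymph node cells may be present in each library. The KI and Arf tumours differ in genotype, agent and time together. Every library is of 1 tumour and 1 treatment, so replicates are tumours, and the libraries of 1 tumour share its cells.

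p53 is a transcription factor that binds DNA as a tetramer and is kept low by Mdm2, a ubiquitin ligase that binds it. (-)-Nutlin is the active mirror-image form of a small molecule that occupies the p53 pocket of Mdm2, and (+)-Nutlin is its far less active enantiomer. Doxorubicin poisons topoisomerase II, and the DNA breaks start a kinase signal that modifies and stabilises p53. Arf, absent from tumours 5 to 7, is an inhibitor of Mdm2. Both drugs thus raise p53 in Arf-null cells by different routes. The question here was what characterises the sites that were called after Mdm2 block and not after doxorubicin.

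The lists hold positions and widths and no height, score or read depth, so a peak that is absent may be a site that was bound in fewer cells, bound less in each cell, or missed at the depth and threshold used. These cannot be told apart. The (-)-Nutlin lists held 10503, 10674 and 5617 peaks in tumours 5, 6 and 7, and the doxorubicin lists 11346, 8250 and 9523. The OHT lists held 4102, 3597, 10084 and 9738 peaks in tumours 1 to 4, and the EtOH lists 116 to 742. The 12 other Arf lists held 707 to 2696. The smallest peak was 278, 282 and 391 bp in the (-)-Nutlin lists of tumours 5, 6 and 7, 314, 314 and 375 bp in the doxorubicin lists, and 304 to 352 bp in the OHT lists. Peaks as short as 52 to 54 bp occurred in all EtOH lists and in the lists of tumours 6 and 7 without an activating drug. Gene names, distances to start sites and DNA sequence at the regions were not analysed here, because the annotation at hand is of another genome build than the peaks (mm9).

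Tumours 5 and 6 supplied nearly all of the (-)-Nutlin-only regions. Of the 481, 421 (87.5%) were called in the (-)-Nutlin lists of tumours 5 and 6 alone, 8 in those of tumours 5 and 7, 15 in those of tumours 6 and 7, and 37 (7.69%) in all 3. Over all 18927 regions, 46.9% were called in at least 2 (-)-Nutlin lists and 27.1% in all 3. The (-)-Nutlin list of tumour 5 thus held 466 of the members, that of tumour 6 held 473 and that of tumour 7 held 60. These counts follow from the rule and are a description. The doxorubicin-only regions were spread otherwise, with 734 of 1453 called in tumours 6 and 7 alone, 186 in tumours 5 and 7, 87 in tumours 5 and 6, and 446 in all 3.

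Many more regions lay just outside the rule than inside it. Another 1575 regions were called in at least 2 (-)-Nutlin lists and in a single doxorubicin list, and that list was the one of tumour 5 in 1335 cases, of tumour 7 in 185 and of tumour 6 in 55. A further 1601 regions were called in 1 (-)-Nutlin list and in no doxorubicin or EtOH list. Only 7 regions left the set because of an EtOH peak. Among members, the lowest mean width percentile within the lists was shared by a region at chrX:7299084-7299422 and one at chr8:72806341-72806923, each with peaks of 278 and 282 bp in tumours 5 and 6, the smallest those lists contain. Next was a member at chr5:117569888-117570279, with 281 bp in tumour 5 and 391 bp in tumour 7. Just outside stood a region at chr2:26207357-26207876, with the same 278 and 282 bp but with a peak in 1 doxorubicin list, and regions at chr10:127669247-127669771 and at chr16:3846996-3847373, with peaks of 278 to 391 bp.

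The (-)-Nutlin-only regions were often called when p53 was restored in KI tumours, and this differed sharply between tumours. OHT lists were not used by the rule. A peak was present at 35 of the 481 (7.28%) in the OHT list of tumour 1, 31 (6.44%) in tumour 2, 317 (65.9%) in tumour 3 and 351 (73.0%) in tumour 4. The same lists had a peak at 21.4%, 18.8%, 52.8% and 50.9% of all 18927 regions. The members were therefore called less often than regions at large in OHT tumours 1 and 2 and more often in tumours 3 and 4. At least 1 OHT list called 396 of the 481 (82.3%), against 67% of all regions, and at least 2 called 281 (58.4%), against 47.3% of all. All 4 OHT lists called 6 members (1.25%), against 8.61% of all regions.

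The doxorubicin-only regions had low shares in all 4 OHT lists. They were called in 8.81%, 5.71%, 8.88% and 4.47% of cases in tumours 1 to 4, under the share of all regions in each list. These shares depend on tumour 6. With it left out, the mean over OHT lists was 18.4% instead of 6.97%, and the 186 doxorubicin-only regions of tumours 5 and 7 alone were called in 32.8% of cases in OHT tumour 3 and 22.6% in tumour 4. The difference, (-)-Nutlin-only minus doxorubicin-only, was -1.53, 0.73, 57.0 and 68.5 percentage points in tumours 1 to 4. Its mean was 31.2 ± 36.8 points (SD, n = 4), from shares of 38.1% for (-)-Nutlin-only and 6.97% for doxorubicin-only regions. In a two-sided exact sign-change test over the 4 lists p was 0.375, and the smallest value that 4 lists allow, 0.13, is above the threshold of 0.05. The mean difference is smaller than its spread between tumours, and its size comes from tumours 3 and 4. Without tumour 4 the mean was 18.7 points, and without tumour 3 it was 22.6. With tumour 6 left out of the drug lists, the 56 members then kept had a mean share of 47.8%. The mean difference was then 29.4 points.

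**Figure D1:**
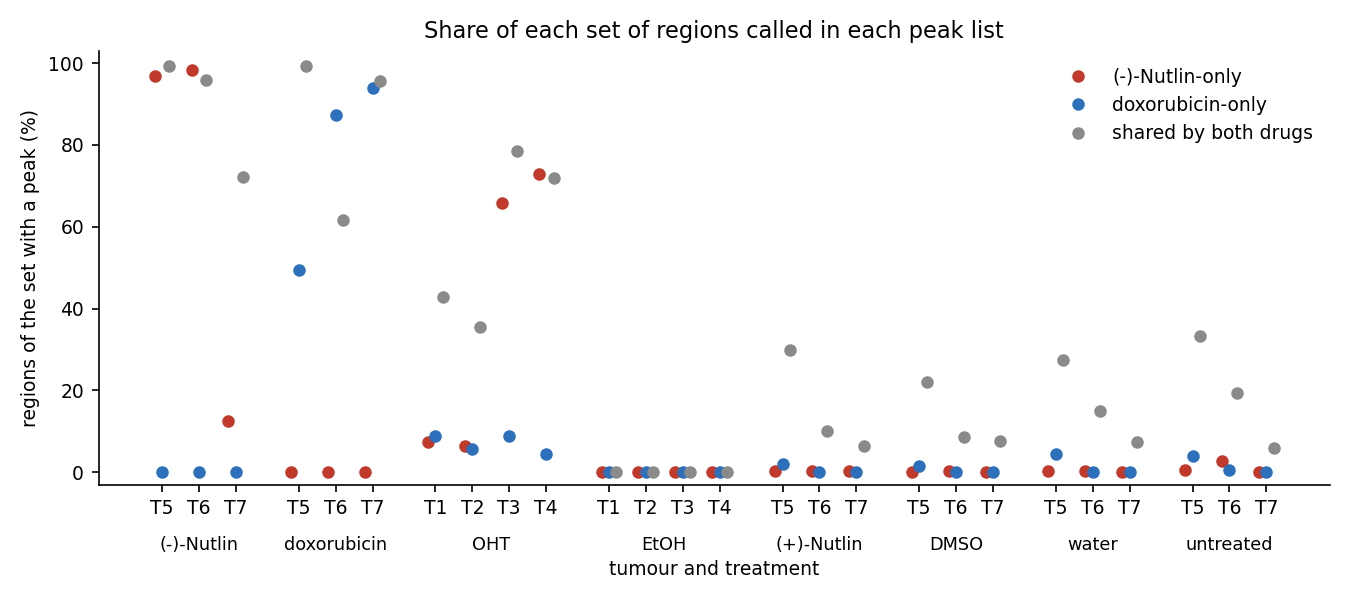
The percentage of (-)-Nutlin-only (red, 481), doxorubicin-only (blue, 1453) and shared (grey, 5967) regions with a peak is plotted for each of the 26 lists, by treatment and tumour (T). The (-)-Nutlin, doxorubicin and EtOH values are set by the rule. The red points lie at 65.9% and 73.0% in OHT tumours 3 and 4, beside 8.88% and 4.47% for the blue ones, and at 7.28% and 6.44% in OHT tumours 1 and 2.

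In OHT tumour 4, and not in tumour 3, the share of (-)-Nutlin-only regions called came close to that of the sites both drugs shared. The shared regions were called in 42.8%, 35.6%, 78.5% and 72.0% of cases in OHT tumours 1 to 4. Members thus lay far under the shared sites in OHT tumours 1 and 2 (7.28% and 6.44%). In tumour 3 members stood at 65.9%, between the shared sites and all regions (52.8%). In tumour 4 their share of 73.0% was level with that of shared sites at full list length, and not at equal list length. Both OHT lists of tumours 3 and 4 called 275 members (57.2%), against 41.9% of all regions. Tumour 4 without tumour 3 accounted for 76, and tumour 3 without tumour 4 for 42. Just 3 members (0.62%) were called in OHT tumours 1 or 2 and in neither of the others, against 5.15% of all regions.

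The neighbouring groups of regions formed a graded series in these OHT lists. Regions called in a single (-)-Nutlin list and in no doxorubicin list had an OHT peak in 30.5% of cases in tumour 3 and 37.5% in tumour 4. Regions called in at least 2 (-)-Nutlin lists and 1 doxorubicin list had one in 81.9% and 87.4%. The members, with 65.9% and 73.0%, stood between them. In OHT tumours 1 and 2 the same order held at a lower level, with single-list regions and members nearly level in tumour 2. Single-list regions had 3.75% and 5.81%, members 7.28% and 6.44%, and regions with 1 doxorubicin list 12% and 11.7%. Shared regions did not extend the series in tumours 3 and 4. At 78.5% and 72.0% they stood under the regions with 1 doxorubicin list. In tumours 1 and 2, at 42.8% and 35.6%, shared regions stood above them.

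**Figure D2:**
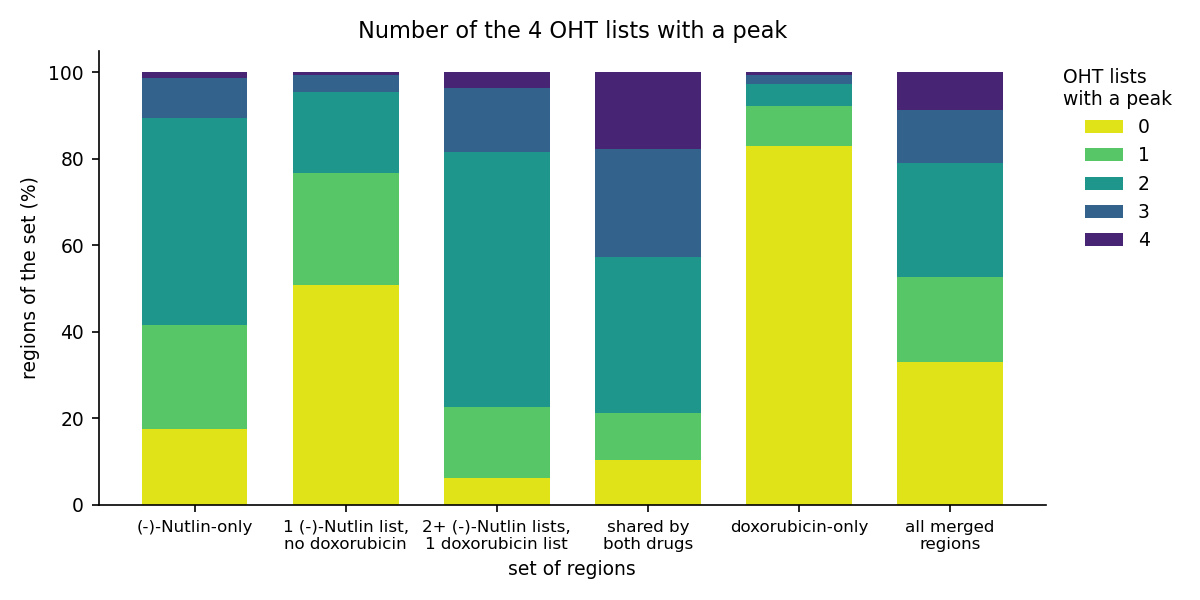
Stacked bars give the percentage of regions in each set that had a peak in 0, 1, 2, 3 or 4 of the 4 OHT lists. Of the (-)-Nutlin-only regions 17.7% had none and 47.8% had 2, while 83.1% of the doxorubicin-only regions had none.

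List length moves with this result. The OHT lists of tumours 3 and 4 held 10084 and 9738 peaks and those of tumours 1 and 2 held 4102 and 3597, and the members sat among their narrower peaks. When each OHT list was cut to its 3597 widest peaks, the length of the shortest, the members were called in 6.24%, 6.44%, 10.6% and 14.3% of cases in tumours 1 to 4, the doxorubicin-only regions in 7.98%, 5.71%, 2.00% and 1.65%, and the shared regions in 38.2%, 35.6%, 36.6% and 35.0%. All regions, 17550 after the cut, then stood at 20.3% to 20.4% in every list. At equal length the members were thus called less often than regions at large and than shared regions in all 4 tumours. The cut keeps wide peaks and member peaks were narrow, so the shares in tumours 1, 3 and 4 depend partly on the cut. At full length the members already stood under all regions and shared regions in tumours 1 and 2. In tumour 3 they already stood under shared regions but above all regions, and in tumour 4 under neither. In tumours 3 and 4 the members were still called more often than doxorubicin-only regions. The mean difference became 5.07 points (exact sign-change p = 0.375). This setting was chosen after seeing the data.

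Peaks at the (-)-Nutlin-only regions were narrow. Their median width in the (-)-Nutlin lists was 324 bp in tumour 5, 346 bp in tumour 6 and 435 bp in tumour 7, at the 18.3, 26.5 and 20.3 percentile of all peaks of each list. Shared regions had medians of 492, 468 and 534 bp there, at the 63.0, 63.4 and 52.8 percentile. In tumour 5, 192 of 466 member peaks (41.2%) were narrower than 314 bp, the smallest peak of any doxorubicin list, and 119 of 473 (25.2%) were so in tumour 6, against 5.37% and 5.49% of the peaks at shared regions and 14.3% and 13.6% of all peaks of these lists. The groups next to the rule shared this trait, with 55.3% and 40.9% at regions called in a single (-)-Nutlin list and 19.8% and 18.4% at regions with 1 doxorubicin list. No doxorubicin list contains a peak of such width. With all peaks narrower than 391 bp, the largest of the 6 smallest widths, removed from the 6 drug lists, the members numbered 222 and the doxorubicin-only regions 1751, a setting added after seeing the data.

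The width in OHT lists, which the rule did not use, was low as well. Member peaks had median widths of 388, 377, 430 and 398 bp in OHT tumours 1 to 4, at the 33.1, 17.9, 34.7 and 33.9 percentile of their lists. Doxorubicin-only regions stood at the 59.5, 63.7, 34.4 and 34.5 percentile, and shared regions at the 55.3, 52.7, 61.7 and 61.9. Members were thus narrower in rank than shared sites in 4 of 4 OHT lists. The groups next to the rule were so too, and low width was not particular to the members. Regions called in a single (-)-Nutlin list stood at the 28.69, 35.11, 25.97 and 27.71 percentile in tumours 1 to 4. Regions with 1 doxorubicin list stood at the 25.35, 33.81, 41.8 and 43.31. Single-list regions were narrower in rank than members in tumours 1, 3 and 4, and regions with 1 doxorubicin list in tumour 1 alone. Against doxorubicin-only regions the members were narrower in tumours 1 and 2 and level in tumours 3 and 4, where the values lay within 1 percentile point.

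**Figure D3:**
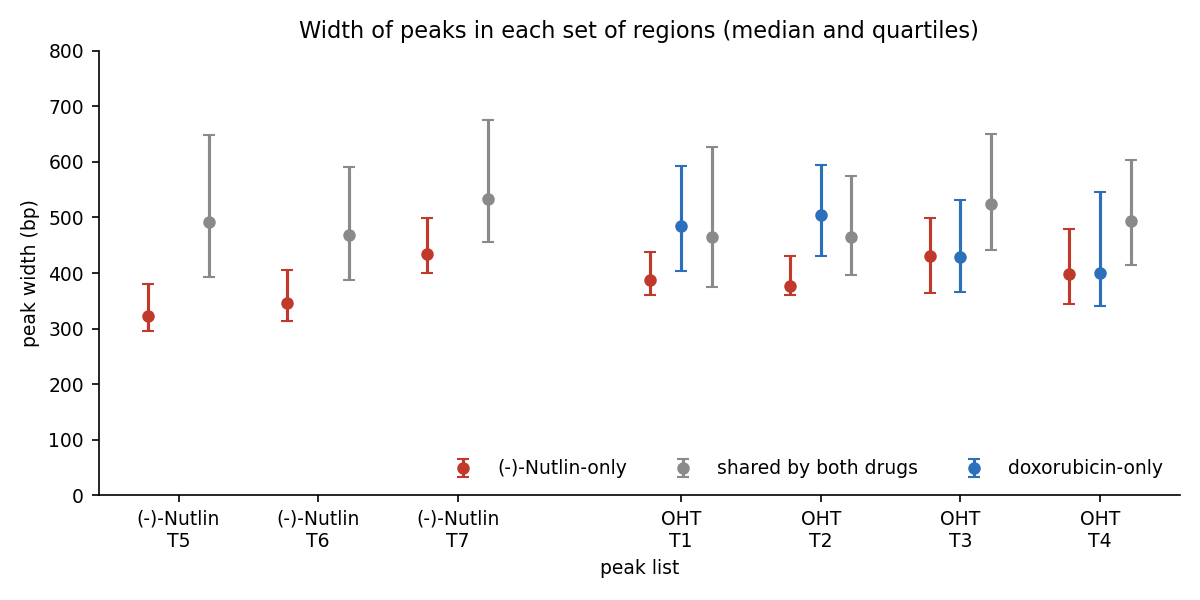
Points give the median peak width in base pairs and bars the quartiles, for (-)-Nutlin-only (red), doxorubicin-only (blue) and shared (grey) regions in the (-)-Nutlin and OHT lists. Doxorubicin-only regions have no (-)-Nutlin peak by definition. The red medians, 324 to 435 bp, lie under the grey ones, 464 to 534 bp, in each of the 7 lists.

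Members called in both of OHT tumours 3 and 4 had somewhat wider peaks in the (-)-Nutlin lists of tumours 5 and 6 than the other members. The 275 members called in OHT tumours 3 and 4 had median (-)-Nutlin widths of 336 bp in tumour 5 and 360 bp in tumour 6. The 118 called in only 1 of these OHT lists had 309 and 336 bp, and the 88 called in neither had 312 and 333 bp. In tumour 7 the order was not the same, with medians of 435 bp over 39 peaks, 417 bp over 16 and 1051 bp over 5, of which 3 lay on chromosome M. At least 1 OHT list called 341 of the 421 members of tumours 5 and 6 alone (81.0%), 12 of the 15 of tumours 6 and 7 (80%), 8 of the 8 of tumours 5 and 7 and 35 of the 37 in all 3 lists (94.6%). Of all 18927 regions, 67% were called in at least 1 OHT list. The groups of 8, 15 and 37 members are too small to rank.

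Before activation the members were almost never called. Of the 481, 458 (95.2%) had no peak in any of the 12 untreated, water, DMSO and (+)-Nutlin lists, and 23 (4.78%) had a peak in exactly 1, against 21.5% of all regions with a peak in at least 1. Shared regions had one in 47.9% of cases and doxorubicin-only regions in 7.78%. Among the groups next to the rule, regions with 1 doxorubicin list had one in 10.5%. Regions called in a single (-)-Nutlin list had one in 0.69%, so a low share was not particular to the members. The untreated list of tumour 6 supplied 13 of the 23 (2.70% of members, against 7.99% of all regions), with peaks of 53 to 99 bp. No other such list had a peak at more than 3 members. Of the 23, 20 were also called in an OHT list. Besides the chromosome M and chromosome 5 regions described further on, those with the highest (-)-Nutlin width percentile were chr9:120480191-120480894, with (-)-Nutlin peaks of 631 and 420 bp in tumours 5 and 6 and a peak of 57 bp in DMSO-treated tumour 6, chr8:127245785-127246446, with 391 and 512 bp and a peak of 53 bp in untreated tumour 6, and chr9:36575139-36575636, with 398 and 498 bp and a peak of 55 bp in water-treated tumour 6. Each of these 3 was also called in OHT tumours 3 and 4.

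Averaged over the 4 unactivated lists of each tumour, the share of regions with a peak was 0.26% for (-)-Nutlin-only and 3.03% for doxorubicin-only regions in tumour 5, 0.88% and 0.15% in tumour 6, and 0.052% and 0.069% in tumour 7. The difference was -2.77, 0.73 and -0.017 percentage points, with a mean of -0.69 ± 1.84 (SD, n = 3). The two-sided exact sign-change p was 0.75, with 0.25 the smallest that 3 tumours allow. The direction was not the same in all tumours, and no difference was detectable. Without tumour 5 the mean was 0.65.

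The mirror-image Nutlins had equal doses and times. (-)-Nutlin lists had a peak at 466, 473 and 60 members in tumours 5, 6 and 7, which the rule fixed, and (+)-Nutlin lists at 1 member each. These were different regions, at chr13:54691237-54691724 with a peak of 357 bp in tumour 5, at chr2:154482446-154482809 with 55 bp in tumour 6, and at chrM:10912-16325 with 63 bp in tumour 7. DMSO lists had a peak at 0, 1 and 0 members. (+)-Nutlin called 0.21% ± 0 of the members (SD, n = 3) and DMSO 0.069% ± 0.12 (SD, n = 3), where the same lists called 6.38% ± 5.21 and 5.12% ± 3.29 of all regions (SD, n = 3 each). At least 1 (+)-Nutlin list called 13.3% of all regions, and at least 1 DMSO list 9.8%. The difference of 0.14 percentage points had an exact permutation p of 0.4, with 0.1 the smallest possible for 3 against 3. With the tumour as a block p was 0.5, with 0.25 the smallest possible. At 1 region per list no difference between (+)-Nutlin and its solvent could be resolved on these regions.

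The 37 members called in all 3 (-)-Nutlin lists are the most recurrent. Of these, 30 were called in at least 2 OHT lists, 31 in OHT tumour 3 and 33 in OHT tumour 4, and 2 in none. Over all 18927 regions, 47.3% were called in at least 2 OHT lists and 33.0% in none. OHT tumour 3 called 52.8% of all regions and OHT tumour 4 called 50.9%. A like share for all regions called in all 3 (-)-Nutlin lists is not given here. Among the 37, the highest mean width percentile was at chr4:118109739-118110497. Its (-)-Nutlin peaks were 737, 695 and 635 bp in tumours 5, 6 and 7. Its OHT peaks were 495 and 736 bp in tumours 3 and 4. It had no peak in any other list. This region, at a mean percentile of 83.5, stood well apart from the next.

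The second, at chr7:4965859-4967116, was wide in tumours 5 and 7 (786 and 1225 bp) and narrow in tumour 6 (301 bp), with 1 OHT peak of 329 bp in tumour 3. A region at chr5:28397452-28398076 had 469, 421 and 625 bp after (-)-Nutlin, and 406, 469 and 350 bp in OHT tumours 1, 3 and 4. That region also had a peak of 67 bp in untreated cells of tumour 6. At chr10:80755330-80756032, (-)-Nutlin peaks were 317, 697 and 557 bp and OHT peaks 569 and 696 bp in tumours 3 and 4.

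At chr4:124479388-124480096, (-)-Nutlin peaks measured 670, 538 and 391 bp and OHT peaks 462 and 500 bp in tumours 3 and 4. A region at chr7:52689539-52690297 had 518, 282 and 650 bp after (-)-Nutlin and 439, 690 and 656 bp in OHT tumours 2 to 4. Here the OHT peaks of tumours 3 and 4 were wider than any of the (-)-Nutlin peaks. At chr1:163806943-163807480 the (-)-Nutlin peaks of 436, 435 and 494 bp were close to one another, with 1 OHT peak of 498 bp in tumour 4.

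The other regions among the 20 of the 37 with the highest mean percentiles had mean percentiles of 32.6 to 44.1. They were chr1:166237364-166237905, chr6:134878367-134879030, chr2:34657576-34658097 and chr2:26092693-26093347, chr4:132091245-132091774 and chr4:151851520-151852124, chr13:14155484-14156051 and chr12:88729143-88729618, each called in OHT tumours 3 and 4 and in no other OHT list. At chr15:98398090-98398530 a peak was called in OHT tumour 4 alone and in untreated tumour 5, and at chr9:20456111-20456640 in OHT tumours 2 and 3. Another 2 of the 20 were called in all 4 OHT lists, at chr7:26495966-26496646 and chr5:125520518-125521039. The exception was chr12:103196328-103196836, with (-)-Nutlin peaks of 315, 475 and 463 bp and no peak in any list of another treatment.

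**Figure D4:**
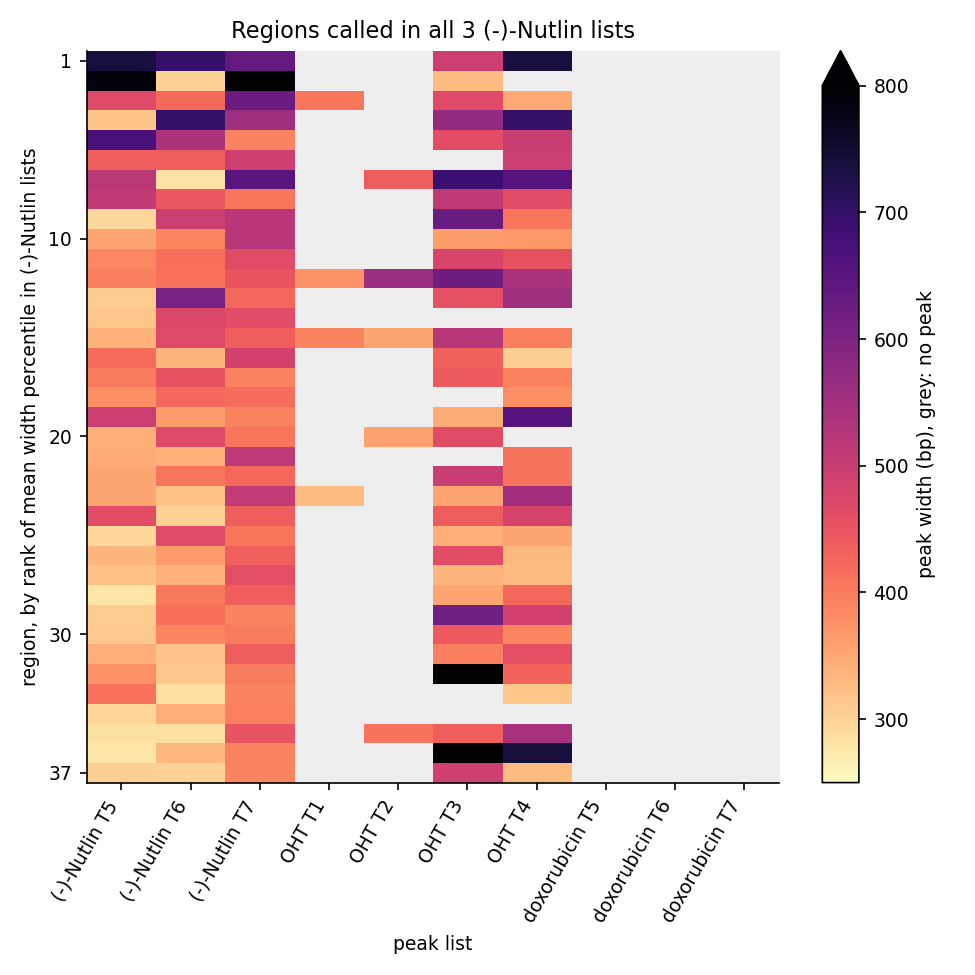
Each row is 1 of the 37 regions called in all 3 (-)-Nutlin lists, ordered by mean width percentile, and colour gives the peak width in base pairs in each (-)-Nutlin, OHT and doxorubicin list (grey where no peak was called). The doxorubicin columns are empty by the rule, and peaks fill 31 and 33 of the 37 rows in OHT tumours 3 and 4. These OHT lists called 52.8% and 50.9% of all regions.

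The 6 members called in all 4 OHT lists are given with their widths, as a description. At chr12:113032975-113033831, OHT peaks measured 727, 352, 716 and 662 bp in tumours 1 to 4, and (-)-Nutlin peaks 480 and 405 bp in tumours 5 and 6. At chr15:81688515-81689041 they measured 494, 391, 389 and 492 bp after OHT and 471 and 384 bp after (-)-Nutlin. At chr7:26495966-26496646 the OHT peaks were 375, 559, 620 and 538 bp, and the 3 (-)-Nutlin peaks 397, 412 and 448 bp.

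At chr16:30180965-30181641 OHT gave 468, 607, 629 and 607 bp, and (-)-Nutlin 306 and 469 bp. At chr5:125520518-125521039 OHT gave 390, 352, 522 and 397 bp, and (-)-Nutlin 339, 471 and 435 bp. The sixth, at chr17:31329438-31330206, had OHT peaks of 649, 361, 660 and 599 bp beside (-)-Nutlin peaks of 323 and 299 bp. None of the 6 had a peak in any of the 12 unactivated Arf lists.

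Among members called in 2 lists, those with the highest mean width percentile lay on mitochondrial DNA. All 3 regions of the series on chromosome M were members, chrM:8-5045, chrM:5150-6231 and chrM:10912-16325. They carried peaks of 5038, 710 and 4755 bp in the (-)-Nutlin list of tumour 6 and of 3031, 1051 and 4467 bp in that of tumour 7. The only other list with a peak on chromosome M was (+)-Nutlin of tumour 7, with 63 bp in the last region. No OHT list had one. p53 is known mainly as a nuclear factor, and whether these peaks reflect p53 binding was not tested. The next by mean width percentile were nuclear, at chr2:26459290-26460050 with 749 and 726 bp in tumours 5 and 6 and no peak in any other list, and at chr4:45543643-45544376 with 698 and 704 bp, and OHT peaks of 398 and 329 bp in tumours 3 and 4.

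Members took a larger share of the (-)-Nutlin sites on the X chromosome than on any autosome. Of the regions called in at least 2 (-)-Nutlin lists, members made up 1.56% (chromosome 14) to 6.89% (chromosome 19) on the autosomes, and 22 of 122 (18.0%) on chromosome X. These counts follow from the rule, rest on 22 regions for X and are a description. Mean width percentiles of the X members ran from 2.26 to 76.6, so some had peaks near the smallest of their lists. Chromosome X held 4.57% of the members, 2.00% of the doxorubicin-only, 1.27% of the shared and 1.81% of all regions. The lists as wholes differed less. Regions on X were 1.39%, 1.35% and 1.79% of those in the (-)-Nutlin lists of tumours 5, 6 and 7. They were 1.26%, 1.32% and 1.72% of those in the doxorubicin lists. At least 1 OHT list called 15 of the 22 X members (68.2%), near the 67% of all regions. Tumour 3 called 12 (54.5%, against 52.8% of all regions) and tumour 4 called 14 (63.6%, against 50.9%).

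**Figure D5:**
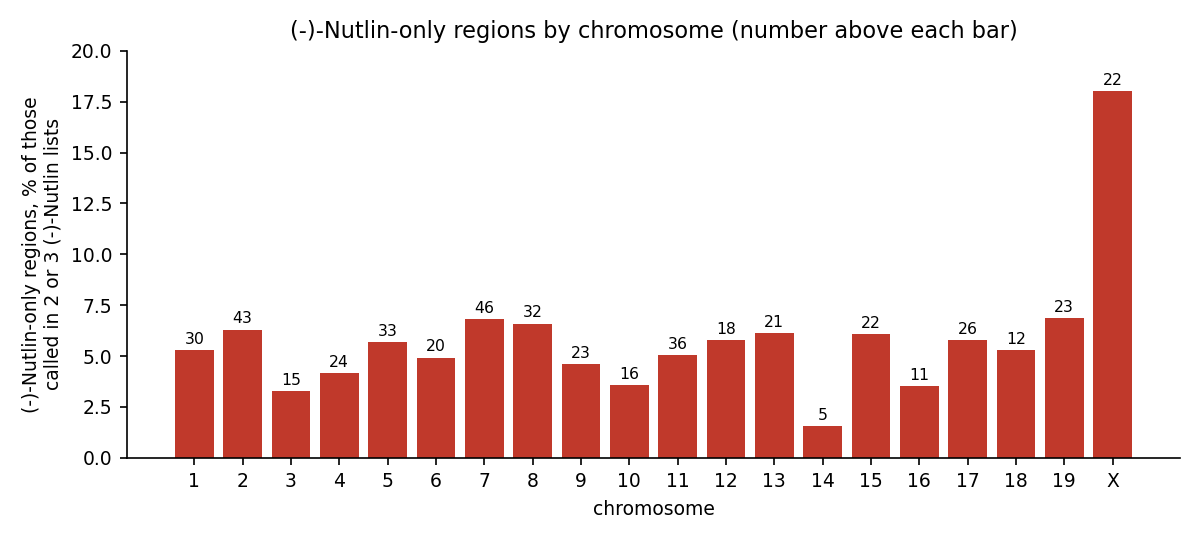
Bars give the (-)-Nutlin-only regions as a percentage of all regions called in at least 2 (-)-Nutlin lists, by chromosome, with the number of members above each bar. Autosomes lie between 1.56% and 6.89% and chromosome X, with 22 members, at 18.0%. The values follow from the rule. Chromosomes M and Y are not drawn.

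Distances to doxorubicin peaks are given as a description, without a value for all regions. The nearest doxorubicin peak of any tumour lay a median of 21.3 kb from a member, within 1 kb for 31 members (6.44%), within 10 kb for 153 (31.8%) and within 100 kb for 430 (89.4%). For doxorubicin-only regions the nearest (-)-Nutlin peak lay a median of 35.5 kb away, within 10 kb for 24.4% and within 100 kb for 73.0%. The drug lists searched hold unlike numbers of peaks, so these distances of members and doxorubicin-only regions are not like for like. The nearest shared region was 54.2 kb from members and 77.2 kb from doxorubicin-only regions in the median. Within 10 kb of another of their own set lay 15 members (3.12%) and 36 doxorubicin-only regions (2.48%). These sets differ in size, with 481 and 1453 regions.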

How the data were processed

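p53 immunoprecipitates of 26 libraries came with 1 peak list each, and 7 input libraries were not analysed here. Reads were handled by the authors with BWA 0.6.2, SAMtools and build mm9, as the submitters' processing notes name them. How peaks were called, and whether inputs entered, is not given in the sources used here. As deposited, each list holds chromosome, start and end in bp, with no score, so read depth is unknown, and intervals that need it are not given. Positions are printed counted from 1.

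Lists were merged, and sets of regions were formed as stated, with Python 3.11.15 and NumPy 2.4.6, tested on simulated lists. Width percentiles are within each list. Tests are exact and two-sided over lists or tumours, with a threshold of 0.05. Libraries are paired by the tumour number of their titles, since equal numbers mean equal tumours: unactivated Arf lists shared regions with a mean Jaccard index of 0.54 within and 0.31 between tumours.

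Named regions are up to 20 members in all 3 (-)-Nutlin lists, and the first 5 each by width among members in 2 lists, by OHT lists and by unactivated lists, plus 3 on either side of the rule with the lowest width percentile. The sixth member in all 4 OHT lists and the regions called by (+)-Nutlin were picked once their values were known. Alternatives changed merging, overlap, list length and width, and left out tumours. The members, sets and rules were chosen with earlier results of these data known. A list of p53 target genes could not be used without an mm9 annotation.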

Additional observations from a re-analysis of the deposited data

Results flagged for a closer look

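Values over the 4 OHT lists were tested for a sample far from the others in 11 quantities, and chance flags about 1 in 20. At (-)-Nutlin-only regions the median width percentile of OHT peaks was 17.9 in tumour 2 and 33.1 to 34.7 in the other tumours, from 31 peaks in tumour 2. The OHT list of tumour 2 has the largest smallest peak of the 4, 352 bp. At chr16:30180965-30181641 the OHT peak of tumour 1 was 468 bp wide, and those of tumours 2 to 4 were 607 to 629 bp.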

How the results depend on the processing

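The number of (-)-Nutlin-only regions was within 1.5 times of 481 under 8 of 11 alternatives. It was 37 when all 3 lists of a drug were required, 222 with peaks narrower than 391 bp removed from the drug lists (added after seeing the data), and 56 to 622 with a tumour left out, the lowest without tumour 6. Cut to 5617 peaks each, the drug lists gave 694 members and 983 doxorubicin-only regions, so the balance of 481 to 1453 depends on list length. Without tumour 7 the sets held 622 and 546 regions.

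The excess of members over doxorubicin-only regions in OHT lists was positive under all 16 alternatives, from 5.07 points with OHT lists of equal length to 46.8 without tumour 5; leaving out 1 OHT list gave 18.7 to 42.1. No p was under 0.05, which 4 lists cannot give. (+)-Nutlin minus DMSO ran from 0 to 3.07 points, was 0 with all 3 lists required or without tumour 6, and kept its value of 0.14 with the tumour as a replicate block (exact p = 0.5). The difference in unactivated lists turned to 0.32 with drug lists of equal length, 0.37 with the narrow peaks removed and 0.65 without tumour 5, and ran from -1.34 to 0.65 with a tumour left out; the cause was not tested. Lacking read depth, the lists cannot separate absent from undetected binding.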
